A study of Mus musculus with 10 samples.

Results

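The genes described here make, break down and sense the cyclic nucleotides cAMP and cGMP. They were all entries of the deposited table whose gene symbol names an adenylyl cyclase, a subunit of soluble or membrane guanylyl cyclase, a natriuretic peptide receptor, a cyclic nucleotide phosphodiesterase (PDE), a subunit of protein kinase A (PKA) or a cGMP-dependent kinase, 52 of the 25233 genes with a symbol. The rule reads gene symbols and no measured value. The set holds 10 adenylyl cyclases, 4 soluble and 5 membrane guanylyl cyclase genes, 3 natriuretic peptide receptors, 22 PDEs, 2 catalytic and 4 regulatory subunits of PKA, and 2 cGMP-dependent kinases.

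Hypertrophied hepatic stellate cells (hypHSCs) were compared with quiescent hepatic stellate cells (qHSCs), 5 libraries each, by bulk RNA sequencing. The hypHSCs came from C57BL/6J mice fed the CDAHFD, which is high in fat, lacks choline and causes steatohepatitis with fibrosis, for 13 weeks (hypHSC 1 and 2, age 19 weeks) or 12 weeks (hypHSC 3, 4 and 5, age 18 weeks). The qHSCs came from C57BL/6J mice on standard diet, aged 36 weeks (qHSC 1, 2 and 5) or 34 weeks (qHSC 3 and 4). No altered allele is named. Both populations were freed from the liver by perfused enzymes, enriched on a density gradient and sorted by autofluorescence, green for hypHSCs and blue for qHSCs. For hypHSCs only, most buffers held penicillin, streptomycin and gentamicin. Diet, age, digestion, antibiotics and sorting gate changed together between the groups, so their parts in any difference cannot be told apart. The libraries are preparations chosen for RNA quality, the mouse behind each is not named, and the p-values measure the spread between preparations.

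Adenylyl cyclases of the membrane make cAMP under the control of G proteins, and cAMP frees the catalytic subunits of PKA from their regulatory subunits. cGMP has separate sources: soluble guanylyl cyclase, a dimer of an alpha and a beta subunit that binds nitric oxide, and membrane receptors for natriuretic peptides. PDEs hydrolyse either nucleotide or both, and cGMP acts largely through its own kinase, which relaxes contractile cells such as smooth muscle and pericytes. HSCs are the pericytes of the liver sinusoid, and nitric oxide from the neighbouring endothelium is known to relax them.

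The depth was 30534719 to 43283589 reads on genes with a symbol in the hypHSC libraries and 35640104 to 47317028 in the qHSC libraries. The unit is the normalized count, reads divided by a size factor per library. A gene was taken as at the floor with 3 reads or fewer, which is 2.25 to 4.54 normalized counts depending on the library and allows for counting error alone. On the second principal component of all tested genes (16.0% of the variance), hypHSC 5 (-168) and hypHSC 4 (-20.6) lay apart from hypHSC 1, 2 and 3 (74.5 to 88.4), so results are also given without these 2 libraries. Mitochondrial genes held 2.21% to 12.8% of the reads in hypHSCs and 1.25% to 1.61% in qHSCs. As a check of the labelled cell type, all 12 quiescent HSC markers examined were lower in hypHSCs, where their summed level was 6865 to 20756 normalized counts against 795981 to 1453880.0 in qHSCs, and *Hhip* was near 0 in hypHSCs (1.58 ± 2.39, mean ± SD, n = 5). All 12 core macrophage markers were higher, with a summed level of 1032120.0 to 1447590.0 against 5971 to 103681, so the labelled cell type is used here as the name of the sorted group.

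Of the 52 genes, 40 were tested, having reached 10 normalized counts in 5 or more of the 10 libraries. A gene was called when its log2 fold change, hypHSC over qHSC on log2(normalized count + 1), was at least 1 in size with an adjusted p of at most 0.05 by limma, adjusted after Benjamini-Hochberg over the 14630 genes tested. The fold change of a low gene depends on the added count of 1 and is drawn towards 0 by it. Where some libraries of a group are at or near 0, the mean of logs can make it larger than the ratio of mean counts, so the count tests DESeq2 and edgeR are given beside many such genes of the set. By this rule 24 of the 40 were called, 19 lower and 5 higher in hypHSCs, where 39.5% of all genes tested were called, 21.7% lower and 17.8% higher. The groups did not overlap in 16 of the 19 lower and 3 of the 5 higher genes. Of all genes tested, 18.4% were called lower and 14.6% higher without overlap. The median log2 fold change was -1.05 over the 40 genes and -0.20 over all genes tested. No called gene changed direction under any of the other settings in which it was tested, 24 for most genes and 23 for *Pde2a*, *Pde4d* and *Pde5a*, which did not pass a stricter filter. Without hypHSC 4 and 5 again 24 were called, 17 lower and 7 higher: *Adcy6*, *Pde10a* and *Pde4d* were no longer called, and *Pde8b* (lower), *Gucy2g* and *Prkar1b* (higher) were.

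**Figure D1:**
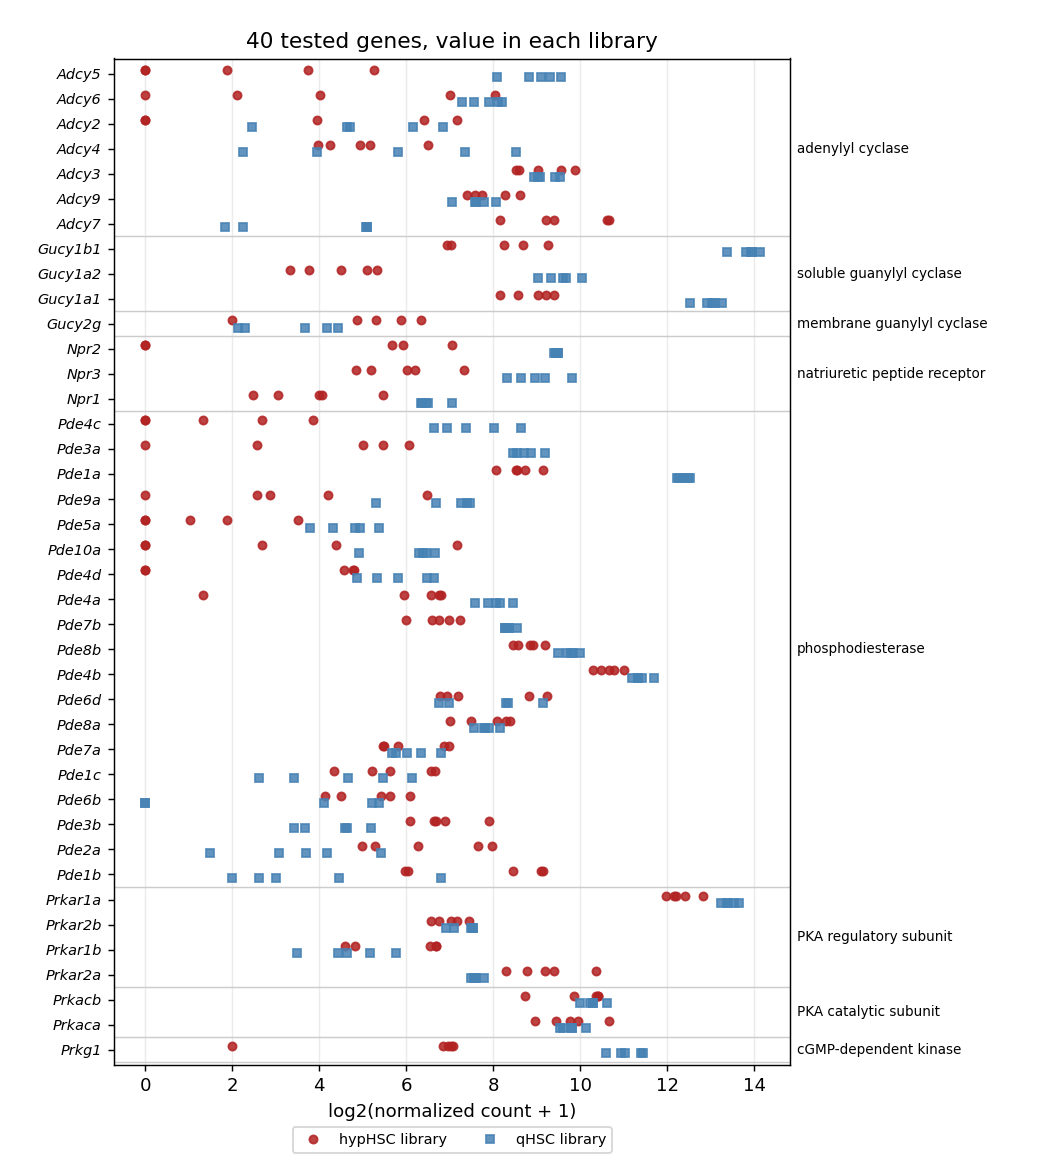
Level of each of the 40 tested genes in every library, as log2(normalized count + 1), with genes grouped by role and ordered by fold change. Red circles are the 5 hypHSC and blue squares the 5 qHSC libraries. The soluble guanylyl cyclase genes, *Prkg1* and *Pde1a* lie far to the right in qHSCs with no overlap, and *Adcy7* lies to the right in hypHSCs.

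The nitric oxide branch of cGMP signalling was low throughout the hypHSC libraries. All 3 tested subunits of soluble guanylyl cyclase and the 1 tested cGMP-dependent kinase were lower in every hypHSC library than in any qHSC library. A call lower without overlap was made for 18.4% of all genes tested. These 4 genes all fell, as did others of the set, and shared control was not tested. The bases before their start sites are printed here, 5′ to 3′ on the strand of the gene, on GRCm39. Each stretch starts 250 bases before the gene start of the deposited table and ends at that start or, where GENCODE places an exon nearer, before it. Capitals mark matches on either strand to GGGCGG (the GC box) or to TGACG (the core of the cAMP response element). *Gucy1b1* and *Gucy1a1* are neighbours on chromosome 3, both on the minus strand.
Gucy1b1, chr3:81982023-81982268: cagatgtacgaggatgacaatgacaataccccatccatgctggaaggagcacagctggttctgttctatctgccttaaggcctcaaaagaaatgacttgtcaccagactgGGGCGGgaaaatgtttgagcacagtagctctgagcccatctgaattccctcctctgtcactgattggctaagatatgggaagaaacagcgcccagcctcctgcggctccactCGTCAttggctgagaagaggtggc
Gucy1a1, chr3:82053254-82053503: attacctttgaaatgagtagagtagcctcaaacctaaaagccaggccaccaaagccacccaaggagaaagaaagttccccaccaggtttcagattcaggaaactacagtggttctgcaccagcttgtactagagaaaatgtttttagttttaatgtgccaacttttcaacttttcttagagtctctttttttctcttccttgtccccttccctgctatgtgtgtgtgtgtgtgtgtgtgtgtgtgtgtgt
Gucy1a2, chr9:3532099-3532318: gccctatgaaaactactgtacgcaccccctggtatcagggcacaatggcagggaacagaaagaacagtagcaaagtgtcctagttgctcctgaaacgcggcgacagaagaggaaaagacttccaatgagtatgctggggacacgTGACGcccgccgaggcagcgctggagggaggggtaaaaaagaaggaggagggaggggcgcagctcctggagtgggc
Prkg1, chr19:31742480-31742683: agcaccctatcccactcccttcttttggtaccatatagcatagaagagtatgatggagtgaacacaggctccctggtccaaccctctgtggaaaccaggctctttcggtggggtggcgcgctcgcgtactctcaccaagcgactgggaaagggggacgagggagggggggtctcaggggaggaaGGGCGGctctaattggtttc

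The windows of *Gucy1b1*, *Gucy1a2* and *Prkg1* lie within promoters that RefSeq lists for these genes on GRCm38.p6, which give the same bases, and 42 of the 52 genes have such an entry. TGACG was found on the minus strand of *Gucy1b1*, 28 to 24 bases before the start, and on the plus strand of *Gucy1a2*, 106 to 102 bases before it. GGGCGG was found 140 to 135 bases before the start of *Gucy1b1* and 66 to 61 before that of *Prkg1*. Among 32851 RefSeq promoter windows of 250 bases, 17.8% hold TGACG and 32.7% hold GGGCGG on either strand. No match was found in these 4 windows to TGACGTCA, the full response element, which contains TGACG (1.55% of promoters), to GAGGAAGT, a motif of the myeloid factor PU.1 (2.44%), to TATAAA (12.4%) or to the CArG box (1.47%). The *Gucy1a1* window matched no promoter that RefSeq lists for this gene. It ends in a run of gt repeats and held none of the motifs.

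*Gucy1b1* (chromosome 3, 81939311 to 81982018, minus strand) encodes the beta subunit that binds heme. It had 608, 302, 411, 129 and 121 normalized counts in hypHSC 1 to 5 and 15697, 17848, 10658, 15555 and 14428 in qHSC 1 to 5. The highest hypHSC library lies far below the lowest qHSC library, and hypHSC 4 and 5 are lowest (log2 fold change -5.81 ± 0.42 (standard error), adjusted p = 1.33e-06). In bulk RNA, fewer cells that make a transcript and less of it in each cell cannot be told apart, here or below.

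*Gucy1a1* (chromosome 3, 81999735 to 82053253, minus strand), the main alpha subunit, had 597, 521, 669, 381 and 286 normalized counts in hypHSC 1 to 5 and 8803, 9859.8, 5850.4, 8298 and 7689 in qHSC 1 to 5. It too was lower in all hypHSC libraries (log2 fold change -4.09 ± 0.25 (standard error), adjusted p = 3.95e-07). Per length, the level of *Gucy1b1* was 4.40 to 4.63 times that of *Gucy1a1* in the qHSC libraries and 0.836 to 2.51 times in the hypHSC libraries, in FPKM (fragments per kilobase of exon, scaled to sequencing depth). The ranges of this ratio do not overlap.

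*Gucy1a2* (chromosome 9, 3532349 to 3905791, plus strand), the other alpha subunit, had 21.6, 33.1, 39.1, 12.6 and 9.07 normalized counts in hypHSC 1 to 5 and 778, 1053, 523, 643 and 819.7 in qHSC 1 to 5 (log2 fold change -5.14 ± 0.43 (standard error), adjusted p = 3.81e-06). Its level was the lowest of the 3 subunits in all libraries, with 1.31 ± 0.318 FPKM in qHSCs (mean ± SD, n = 5) against 23.6 ± 4.15 for *Gucy1a1* and 107 ± 17.8 for *Gucy1b1*. In hypHSCs the FPKM was 0.0328 ± 0.0211, 1.16 ± 0.475 and 1.84 ± 1.26 in the same order. *Gucy1b1* had the highest mean FPKM of all 52 genes in qHSCs and ranked 7 in hypHSCs. The fourth gene of this group, *Gucy1b2*, had no read in any library.

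*Prkg1* (chromosome 19, 30541889 to 31742433, minus strand), which encodes the cGMP-dependent kinase of smooth muscle and pericytes, had 124, 129, 133, 113 and 3.02 normalized counts in hypHSC 1 to 5 and 1945, 2798, 1545, 2077 and 2682 in qHSC 1 to 5. hypHSC 1 to 4 lie close together, and hypHSC 5 is at the floor of detection with 2 reads. The log2 fold change was -5.10 ± 0.87 (adjusted p = 0.000594) and -4.10 without hypHSC 5 (adjusted p = 1.55e-07), and -4.45 in DESeq2 and -4.40 in edgeR, both called. *Prkg2*, the kinase of intestine and cartilage, had 3 reads in hypHSC 1 and none in the other libraries, and was not tested.

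Relative to the mean of the qHSC libraries, the hypHSC libraries held 0.816% to 4.10% of *Gucy1b1*, 3.53% to 8.25% of *Gucy1a1*, 1.19% to 5.12% of *Gucy1a2* and 0.137% to 6.02% of *Prkg1*. Without hypHSC 4 and 5 the log2 fold changes were -5.11, -3.75, -4.57 and -4.06, all called. The summed quiescent HSC markers stood at 0.555% to 1.68% in the same libraries. These genes and the marker sum were lower in all hypHSC libraries than in any qHSC library, a difference between the groups. Among the hypHSC libraries, the marker sum and *Gucy1b1* were highest in hypHSC 1. *Gucy1a1*, *Gucy1a2* and *Prkg1* were highest in hypHSC 3, and all were lowest in hypHSC 5. The part of the marker fall in that of these genes was not tested.

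All 3 natriuretic peptide receptors fell, and no hypHSC library reached the qHSC range for any of them. Among all genes tested, 18.4% were called lower without overlap. *Npr2* (chromosome 4, 43631935 to 43651437, plus strand), the membrane guanylyl cyclase that answers C-type natriuretic peptide, had 131, 49.7, 59.9, 0 and 0 normalized counts in hypHSC 1 to 5 and 671, 698, 692, 723 and 718 in qHSC 1 to 5. The qHSC libraries differ by little, and hypHSC 4 and 5 have no read. The fitted change was -5.73 ± 1.33 (adjusted p = 0.00425) on the log2 scale, -6.56 without hypHSC 1, -4.80 without hypHSC 4 or hypHSC 5 and -3.24 without both (adjusted p = 1.43e-05). It was -7.48 with the 12-week hypHSCs only, -3.87 in DESeq2 and -3.85 in edgeR, all called.

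*Npr3* (chromosome 15, 11839982 to 11907457, minus strand), the clearance receptor that takes up natriuretic peptides and has no cyclase, had 63.3, 27.9, 35.8, 72.4 and 159 normalized counts in hypHSC 1 to 5 and 396, 582, 319, 501 and 891 in qHSC 1 to 5. Here hypHSC 5 is the highest of its group, unlike for *Npr2* (log2 fold change -3.07 ± 0.47 (standard error), adjusted p = 0.0003). *Npr1*, the receptor of atrial and brain natriuretic peptides, was low in both groups, at 4.54 to 43.1 normalized counts in hypHSCs and 79.4 to 132 in qHSCs (log2 fold change -2.74 ± 0.56 (standard error), adjusted p = 0.00206). Summed over the 3 receptors, the level was 0.179 to 0.569 FPKM in hypHSCs and 3.34 to 4.25 FPKM in qHSCs.

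Of the 5 other membrane guanylyl cyclase genes, which serve the gut, the retina and the olfactory system, only *Gucy2g* was tested. Its normalized counts were 3.02 to 79.7 in hypHSCs against 3.42 to 20.4 in qHSCs, and it was not called (log2 fold change 1.53 ± 0.86 (standard error), adjusted p = 0.164), but it was in DESeq2, without hypHSC 5 and without hypHSC 4 and 5 (log2 fold change 2.49, adjusted p = 0.0114). *Gucy2c* had 20.2 normalized counts in hypHSC 1, 37.3 in hypHSC 2, 26.0 in qHSC 3 and 2.57 in qHSC 4, with no read in the other libraries. *Gucy2d* had reads only in hypHSC 5 (9.07 normalized counts), and *Gucy2e* and *Gucy2f* had none.

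**Figure D2:**
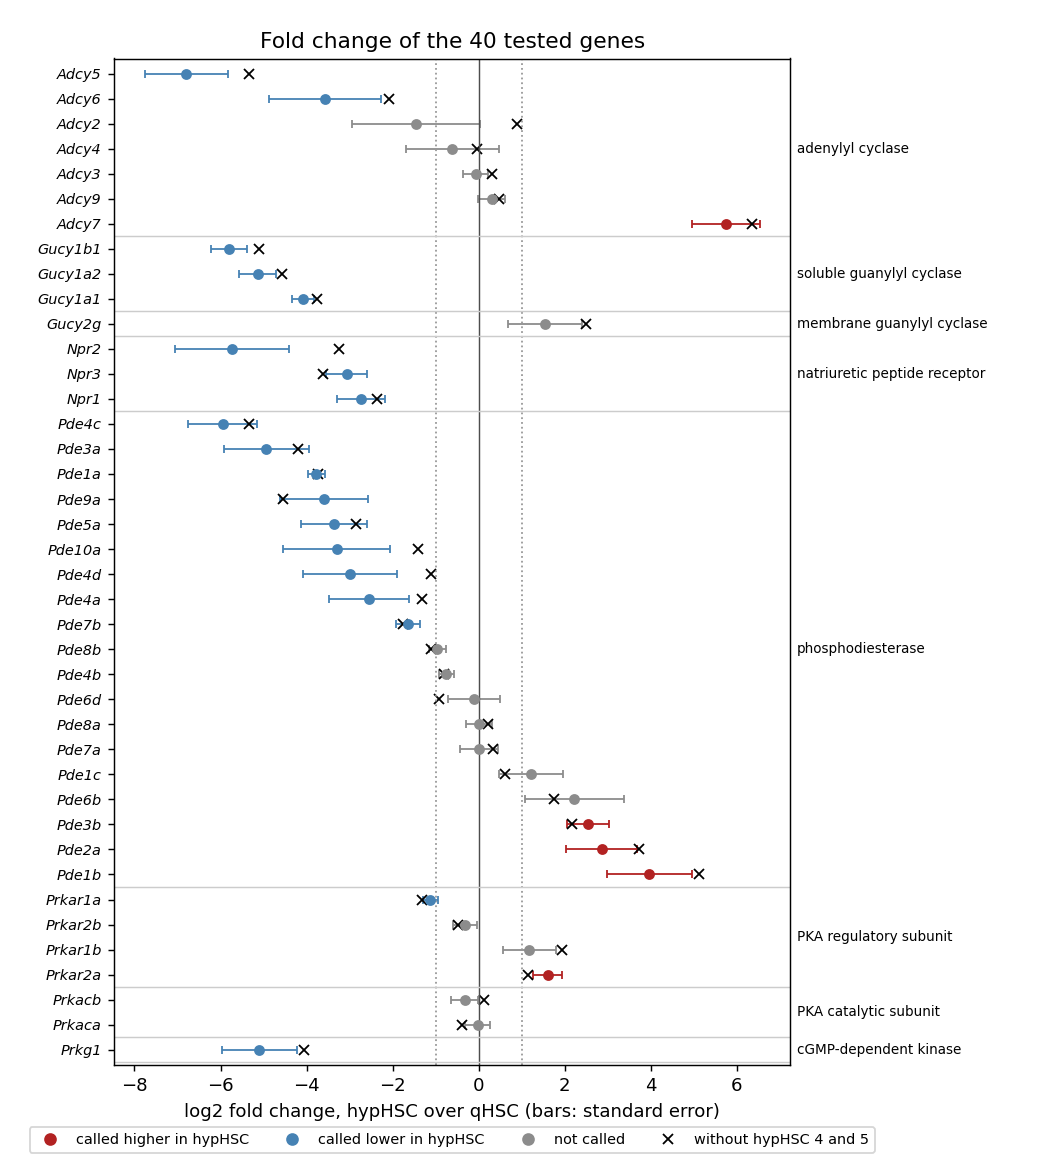
Log2 fold change of the 40 tested genes, hypHSC over qHSC, with the standard error as bars. Red points are called higher, blue called lower and grey not called, dotted lines mark a log2 fold change of 1 in either direction, and crosses give the value without hypHSC 4 and 5. All 3 soluble guanylyl cyclase subunits and all 3 natriuretic peptide receptors are called lower, and both catalytic subunits of PKA lie near 0.

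Among the adenylyl cyclases, *Adcy7* held the largest share of the summed FPKM in hypHSC 1 to 4 and *Adcy5* in qHSC 1, 2, 4 and 5. 7 of the 10 were tested and 42.9% of these called, with *Adcy5* and *Adcy6* lower and *Adcy7* higher in hypHSCs. The share called among all genes tested was 39.5%, 21.7% lower and 17.8% higher. *Adcy5* (chromosome 16, 34975234 to 35126113, plus strand), an isoform that calcium inhibits, had 2.7, 12.4, 37.4, 0 and 0 normalized counts in hypHSC 1 to 5 and 549, 756, 272, 628 and 451 in qHSC 1 to 5. It is at or under the floor in hypHSC 1, 4 and 5, and its fitted change was -6.80 ± 0.96 (adjusted p = 0.000159) on the log2 scale. It was -7.57 without hypHSC 3, the highest hypHSC library, -5.34 without hypHSC 4 and 5, -5.63 in DESeq2 and -5.49 in edgeR, all called.

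*Adcy7* (chromosome 8, 88999031 to 89056590, plus strand), the isoform known from blood cells, moved the other way. It had 674, 1629, 1555, 592 and 283 normalized counts in hypHSC 1 to 5 and 33.5, 2.56, 33.1, 32.5 and 3.75 in qHSC 1 to 5. All hypHSC libraries lie above all qHSC libraries, and the rise was the largest of the set (log2 fold change 5.74 ± 0.79 (standard error), adjusted p = 0.000137). In GENCODE, 13.0% of its exon bases are shared with *Brd7* on the other strand, and the libraries kept no strand: *Brd7* averaged 3490.4 ± 1486 normalized counts in hypHSCs against 1356 ± 186 in qHSCs (mean ± SD, n = 5), and how many of its reads were counted for *Adcy7* was not tested.

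*Adcy6* (chromosome 15, 98487873 to 98505516, minus strand), a close relative of *Adcy5*, had 261, 128, 3.33, 0 and 15.1 normalized counts in hypHSC 1 to 5 and 239.8, 291, 275, 156 and 187 in qHSC 1 to 5. hypHSC 1 lies within the qHSC range and hypHSC 3, 4 and 5 far below it. The call (log2 fold change -3.58 ± 1.30 (standard error), adjusted p = 0.0409) was lost on leaving out any single library other than hypHSC 1 (-4.53) or hypHSC 2 (-4.27), with a log2 fold change of -2.52 without hypHSC 4 (adjusted p = 0.0753). It was not called without hypHSC 4 and 5 (-2.09, adjusted p = 0.129), in DESeq2 (-1.49, adjusted p = 0.249) or in edgeR (-1.50, adjusted p = 0.282), and was with the 12-week hypHSCs only (-5.77). By exact two-sided permutation over all arrangements of the libraries, p was 0.0397, where 0.00794 is the smallest possible.

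*Adcy3* (369 to 939.7 normalized counts in hypHSCs, 489.7 to 735 in qHSCs), the isoform of olfactory neurons that many cells share, and the widespread *Adcy9* (168 to 392 and 133 to 267) were not called, with log2 fold changes of -0.07 ± 0.29 (adjusted p = 0.848) and 0.30 ± 0.31 (adjusted p = 0.451). In *Adcy3*, 19.0% of exon bases are shared with *Cenpo* on the other strand. *Adcy2* (0 to 143 and 4.5 to 114) and *Adcy4* (14.7 to 89 and 3.75 to 366) varied widely within both groups and were not called either. The 2 qHSC libraries highest in *Adcy4*, qHSC 4 (366) and qHSC 1 (163), were also those highest among qHSCs in the summed core macrophage markers (103681 and 46421). In the hypHSC libraries that sum was 1032120.0 to 1447590.0, with *Adcy4* at 14.7 to 89, and the relation was not tested. *Adcy10*, the soluble cyclase that bicarbonate activates, had 18.9 normalized counts in hypHSC 1, none in the other hypHSC libraries and 0 to 18.0 in qHSCs, and *Adcy1* and *Adcy8*, the calmodulin-activated isoforms of neurons, had reads only in hypHSC 1 (1.35 and 8.09 normalized counts). Summed over the 10 cyclases, the level was 1.51 to 7.18 FPKM in hypHSCs and 4.03 to 7.51 FPKM in qHSCs, ranges that overlap. Within this sum *Adcy7* took 33.9% to 53.9% in hypHSCs and 0.0965% to 1.97% in qHSCs, and *Adcy5* took 0% to 1.95% and 25.2% to 44.5%. *Adcy3* took 23.3% to 41.2% and 17.2% to 30.3%. It was above *Adcy7* in hypHSC 5 (41.2% against 33.9%). In qHSC 3, *Adcy3* and *Adcy6* (27.2% each) were above *Adcy5* (25.2%).

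The PDEs were the largest family, with 22 genes, of which 19 were tested and 12 called, 9 lower and 3 higher in hypHSCs, where 39.5% of all genes tested were called, 21.7% lower and 17.8% higher. Their summed level was 10.8 to 12.9 FPKM in hypHSCs and 37.3 to 45.6 FPKM in qHSCs. The largest share of the qHSC sum was that of *Pde1a*, 47.2% to 54.6%, against 7.94% to 16.8% in hypHSCs, where *Pde4b* held 23.7% to 32.7%. *Pde6d* is counted in the sum by its symbol and held up to 37.5% in hypHSCs (hypHSC 5).

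*Pde1a* (chromosome 2, 79664797 to 79960002, minus strand) encodes a calmodulin-activated enzyme that hydrolyses cAMP and, with preference, cGMP. It had 562, 421, 268, 372 and 366 normalized counts in hypHSC 1 to 5 and 5703, 5869.7, 5333, 4782 and 4966 in qHSC 1 to 5. Both groups are tight, hypHSC 4 and 5 included, and the change had the smallest standard error among the called genes except *Prkar1a* (log2 fold change -3.78 ± 0.20 (standard error), adjusted p = 1.56e-07).

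*Pde1b* (chromosome 15, 103411461 to 103438483, plus strand), a second calmodulin-activated PDE, rose. It had 349, 565, 547, 65 and 62 normalized counts in hypHSC 1 to 5 and 20.8, 5.11, 7.09, 111 and 3.0 in qHSC 1 to 5. hypHSC 4 and 5 lie below qHSC 4, so the groups overlap. qHSC 4 is the qHSC library highest in the summed macrophage markers (103681). That sum was 1284250.0 in hypHSC 4 and 1032120.0 in hypHSC 5, and the relation was not tested. The log2 fold change was 3.97 ± 0.99 (adjusted p = 0.00674), 4.72 without qHSC 4, 5.12 without hypHSC 4 and 5 and 3.26 with the 12-week hypHSCs only, all called. GENCODE shares 35.4% of its exon bases with *Ppp1r1a* on the other strand, which averaged 33.5 ± 34.6 normalized counts in hypHSCs against 2.40 ± 5.36 in qHSCs (mean ± SD, n = 5). *Pde1c* was not called (19.1 to 99.8 normalized counts in hypHSCs, 5.13 to 68.8 in qHSCs). Of the summed FPKM of the 3 PDE1 genes, *Pde1a* held 97.5% to 99.9% in qHSCs and 30.8% to 78.1% in hypHSCs, with *Pde1b* at 14.4% to 68.4% in hypHSCs.

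The cGMP-inhibited PDE3 pair also moved in opposite directions. *Pde3a* (chromosome 6, 141194995 to 141451672, plus strand), the form of heart, platelets and smooth muscle, had 66, 31.1, 4.99, 43 and 0 normalized counts in hypHSC 1 to 5 and 469.7, 586, 350.4, 420.1 and 371 in qHSC 1 to 5 (log2 fold change -4.94 ± 0.995 (standard error), adjusted p = 0.00181). hypHSC 5 has no read, and the change was -3.98 without it, -6.08 with the 12-week hypHSCs only, -3.92 in DESeq2 and -3.89 in edgeR, all called. *Pde3b* (chromosome 7, 114014489 to 114138486, plus strand), the form of adipocytes and hepatocytes, had 102, 67.3, 99, 118 and 239 normalized counts in hypHSC 1 to 5 and 35.3, 23.9, 11.8, 23.1 and 9.74 in qHSC 1 to 5 (log2 fold change 2.54 ± 0.49 (standard error), adjusted p = 0.00138). hypHSC 5 is highest in *Pde3b*, and it is also the library highest in summed hepatocyte markers (95920.1 normalized counts, against 6943 to 43168 in hypHSC 1 to 4 and 20394 to 62635 in qHSCs), whose part was not tested. *Pde3a* held 93.0% to 97.4% of the PDE3 sum in qHSCs and 0% to 39.2% in hypHSCs. The PDE3 sum itself was 0.188 to 0.390 FPKM in hypHSCs and 0.836 to 1.44 FPKM in qHSCs.

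*Pde2a* (chromosome 7, 101070898 to 101162036, plus strand), which cGMP stimulates, had 199, 76.6, 251.97, 30.4 and 37.8 normalized counts in hypHSC 1 to 5 and 1.81, 17, 41.7, 12 and 7.49 in qHSC 1 to 5. It rose (log2 fold change 2.86 ± 0.83 (standard error), adjusted p = 0.0144), although hypHSC 4 and 5 lie below qHSC 3, and without those 2 the log2 fold change was 3.73. With the 12-week hypHSCs only, which leaves out hypHSC 1 and 2, it was 2.51 and no longer called (adjusted p = 0.0686). By exact two-sided permutation p was 0.0238. Of its exon bases, 55.6% are shared with the predicted genes Gm45837 and Gm72915, whose reads cannot be told apart from its own there.

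**Figure D3:**
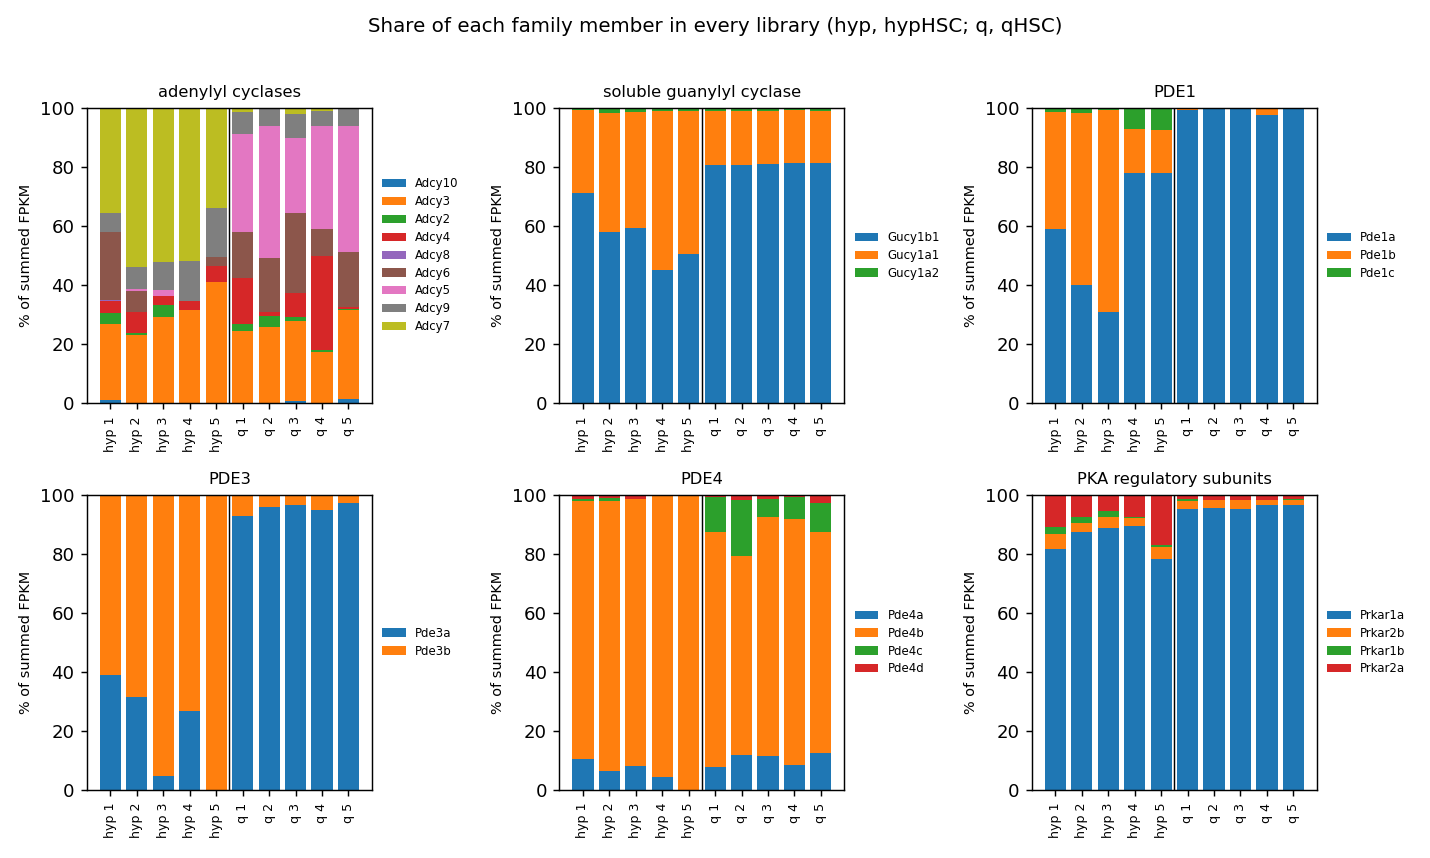
Share of each gene in the summed FPKM of its family, in percent, for every library (stacked bars, 5 hypHSC libraries left of the line and 5 qHSC libraries right of it), for genes that reach 0.5% in a library. *Adcy7* against *Adcy5*, *Pde1b* against *Pde1a* and *Pde3b* against *Pde3a* take larger shares in all hypHSC libraries than in any qHSC library.

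PDE4 enzymes hydrolyse cAMP alone and are the targets of rolipram. *Pde4b* (chromosome 4, 101944936 to 102464472, plus strand) had the highest level of the 4, at 1246 to 2042 normalized counts in hypHSCs and 2353 to 3333 in qHSCs. The groups did not overlap and the adjusted p was 0.00408, but the log2 fold change of -0.75 ± 0.17 was short of 1, so it was not called. *Pde4a* (chromosome 9, 21077008 to 21124548, plus strand) had 110.5, 107, 94, 60.9 and 1.51 normalized counts in hypHSC 1 to 5 and 236, 349, 265, 189 and 284 in qHSC 1 to 5. The hypHSC libraries lie below all qHSC libraries, with hypHSC 5 near 0 (log2 fold change -2.54 ± 0.93 (standard error), adjusted p = 0.0413). Without hypHSC 5 the log2 fold change was -1.51 and still called (adjusted p = 0.00117), whereas without hypHSC 4, or without any 1 of the qHSC libraries, the call was lost (adjusted p up to 0.0824). It was -1.32 without hypHSC 4 and 5, -1.82 in DESeq2, -1.78 in edgeR and -3.41 with the 12-week hypHSCs only, all called. The exact two-sided permutation p was 0.00794.

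*Pde4c* (chromosome 8, 71176713 to 71582385, plus strand) had 5.39, 13.5, 0, 0 and 1.51 normalized counts in hypHSC 1 to 5 and 258, 399.6, 98.4, 121 and 166 in qHSC 1 to 5 (log2 fold change -5.95 ± 0.81 (standard error), adjusted p = 0.000121). It is near the floor in all hypHSC libraries except hypHSC 2. The change was -5.34 without hypHSC 4 and 5, -7.08 with the 12-week hypHSCs only, -5.68 in DESeq2 and -5.61 in edgeR, all called. The span that the deposited table gives it, 405673 bases, is longer than the 27467 bases in GENCODE, and whether reads of neighbouring genes were counted for it was not tested. *Pde4d* was low, at 0 to 26.9 normalized counts in hypHSCs and 28.2 to 98.9 in qHSCs. It was called (log2 fold change -2.99 ± 1.09 (standard error), adjusted p = 0.0411), but not without hypHSC 4 or hypHSC 5, which have no read of it (-2.28 without either, -1.10 without both), nor without qHSC 1, 2, 3 or 5 (adjusted p up to 0.0891). It was not called in DESeq2 (-2.01, adjusted p = 0.0829) or edgeR (-1.95, adjusted p = 0.145) either, and was with the 12-week hypHSCs only (-4.23). Within the PDE4 sum, *Pde4b* held 67.5% to 83.2% in qHSCs and 87.3% to 99.7% in hypHSCs.

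PDE7 and PDE8 are cAMP-specific families too. *Pde7b* (chromosome 10, 20272799 to 20600825, minus strand) had 95.7, 149, 63.2, 107 and 126 normalized counts in hypHSC 1 to 5 and 376, 310.1, 328, 323 and 306 in qHSC 1 to 5, a fall with no overlap (log2 fold change -1.65 ± 0.28 (standard error), adjusted p = 0.00057). *Pde7a*, at 43.5 to 125 and 50.2 to 109.9 normalized counts, was not called (0.01 ± 0.44). *Pde8b* (chromosome 13, 95160613 to 95386844, minus strand), an enzyme with high affinity for cAMP, lay at 349 to 582 normalized counts in hypHSCs and 723 to 1015 in qHSCs. The groups did not overlap (adjusted p = 0.0018), and its log2 fold change of -0.96 ± 0.19 missed the threshold but passed it without hypHSC 5, without qHSC 3 and without hypHSC 4 and 5 (-1.11). *Pde8a* did not differ detectably (127 to 334 and 187 to 286 normalized counts, log2 fold change 0.01 ± 0.31).

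Of the cGMP-specific PDEs, *Pde9a* (chromosome 17, 31605208 to 31695283, plus strand) had 17.5, 0, 4.99, 6.29 and 87.7 normalized counts in hypHSC 1 to 5 and 151, 169, 38.6, 102 and 175 in qHSC 1 to 5. It fell (log2 fold change -3.60 ± 1.02 (standard error), adjusted p = 0.013), with hypHSC 5 inside the qHSC range. The log2 fold change was -4.41 without hypHSC 5 and -2.79 without hypHSC 2, in DESeq2 it was -2.46 and called (adjusted p = 0.027), and in edgeR it was -2.37 and not called (adjusted p = 0.0851). It was -4.56 without hypHSC 4 and 5 and -2.85 with the 12-week hypHSCs only, both called. The exact two-sided permutation p was 0.0159. *Pde5a*, the target of sildenafil in smooth muscle, was low even in qHSCs (12.7 to 40.2 normalized counts) and at 0 to 10.3 in hypHSCs (log2 fold change -3.36 ± 0.77 (standard error), adjusted p = 0.00405). Its change was -4.30 with the 12-week hypHSCs only, -3.18 in DESeq2 and -3.11 in edgeR, all called. Its mean FPKM was 0.0741 ± 0.0309 in qHSCs against 21.7 ± 2.4 for *Pde1a*.

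*Pde10a*, which hydrolyses both nucleotides, was called (log2 fold change -3.30 ± 1.24 (standard error), adjusted p = 0.0466) but had 5.39, 142, 20, 0 and 0 normalized counts in hypHSC 1 to 5 and 82.4, 29, 77.9, 101 and 86.9 in qHSC 1 to 5. hypHSC 2 is the highest of all 10 libraries, and with a single library left out the call held only without hypHSC 2 (-4.38) or hypHSC 3. It was lost on leaving out any other (-2.59 without hypHSC 4 or hypHSC 5). It was not called without hypHSC 4 and 5 (-1.40, adjusted p = 0.202), in DESeq2 (-1.17, no adjusted p) or in edgeR (-1.16, adjusted p = 0.467), and was with the 12-week hypHSCs only (-4.68), and the exact two-sided permutation p was 0.0714. The photoreceptor gene *Pde6b* was not called (16.6 to 66.5 and 0 to 40.5 normalized counts). *Pde6d*, whose product is a carrier of prenylated proteins and not a PDE, was not called either, with 109 to 605 and 107 to 564. *Pde6a* reached 17.5 normalized counts in a single hypHSC library, and *Pde6c* and *Pde11a* were at the floor in all libraries.

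For PKA, 2 of the 4 regulatory subunits changed, in opposite directions, and neither catalytic subunit was called, where 39.5% of all genes tested were called. *Prkar1a* (chromosome 11, 109539849 to 109560489, plus strand), the most abundant regulatory subunit, had 4024, 4737, 4548, 7257 and 5469 normalized counts in hypHSC 1 to 5 and 10814, 11850.2, 9668, 10673 and 12881 in qHSC 1 to 5. It fell with no overlap (log2 fold change -1.13 ± 0.18 (standard error), adjusted p = 0.000368), by little more than the threshold, and with the 12-week hypHSCs only its log2 fold change was -0.98 and not called. *Prkar2a* (chromosome 9, 108569342 to 108627643, plus strand), a regulatory subunit that anchoring proteins hold at membranes, had 583, 439, 314, 670.4 and 1317 normalized counts in hypHSC 1 to 5 and 188, 221, 178, 189 and 194 in qHSC 1 to 5. It rose with no overlap, most in hypHSC 5 (log2 fold change 1.60 ± 0.34 (standard error), adjusted p = 0.0026), and with libraries scaled on *Hprt*, *Pgk1* and *Actb* its log2 fold change was 0.67 and not called. The exact two-sided permutation p was 0.00794 for both.

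*Prkar2b* (94.2 to 174 normalized counts in hypHSCs, 119.8 to 184 in qHSCs) and *Prkar1b* (23.1 to 102 and 10.3 to 53.4) were not called, and *Prkar1b* was called without hypHSC 4 and 5 (1.94, adjusted p = 0.0103). Of the summed FPKM of the 4 regulatory genes, *Prkar1a* held 95.1% to 96.6% in qHSCs and 78.2% to 89.4% in hypHSCs, and *Prkar2a* 1.32% to 1.61% and 5.54% to 17.0%. The sum was 12.3 to 18.6 FPKM in hypHSCs and 33.9 to 38.6 FPKM in qHSCs.

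The catalytic subunit genes *Prkaca* (chromosome 8, 84699607 to 84723079, plus strand) and *Prkacb* (chromosome 3, 146435335 to 146518701, minus strand) had 496 to 1629 and 423 to 1363 normalized counts in hypHSCs, against 737 to 1118 and 1013 to 1575 in qHSCs. Their log2 fold changes were -0.02 ± 0.29 (adjusted p = 0.955) and -0.33 ± 0.31 (adjusted p = 0.409), and the ranges overlapped. hypHSC 5 was the highest library for *Prkaca* and the lowest for *Prkacb*. A call needed a log2 fold change of at least 1 in size, so a smaller difference in either gene would not have been called. With libraries scaled on *Hprt*, *Pgk1* and *Actb*, which moved the median of all genes tested from -0.20 to -1.13, *Prkacb* was called lower (-1.27, adjusted p = 0.000615), as were *Prkar2b* (-1.25), *Pde4b* (-1.69), *Pde8b* (-1.90) and *Adcy3* (-1.01). Scaling to the same total moved that median to -0.55 and also called *Pde4b* (-1.11) and *Pde8b* (-1.32) lower.

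Genes around the set were counted from lists drawn up from general knowledge, with earlier results of these data known. The counts and medians therefore serve description only, beside the 21.7% of all genes tested that were called lower and the 17.8% called higher. Of 23 receptors coupled to the stimulatory G protein, 13 were tested, and 7 fell and 4 rose, with a median log2 fold change of -3.05 where that of all genes tested was -0.20. Among called receptors with a mean of at least 100 in a group, the largest falls were in *Gcgr*, the glucagon receptor (16.3 ± 16.6 normalized counts in hypHSCs, 1861 ± 753 in qHSCs, -7.58 ± 0.87 (adjusted p = 3.75e-05)), *Pth1r*, the parathyroid hormone receptor (-7.01 ± 0.55 (adjusted p = 2.45e-06)), and *Vipr1*, a receptor of vasoactive intestinal peptide (-6.76 ± 0.78 (adjusted p = 4.07e-05)). *Vipr1* reached 10 normalized counts in qHSC libraries only (0 to 6.21 in hypHSCs). The largest rises were in *Adora2b*, an adenosine receptor (310.0 ± 219 and 10.8 ± 10.3, 4.99 ± 0.96 (adjusted p = 0.00138)), and *Ptger4*, a prostaglandin E2 receptor (121 ± 60.5 and 4.03 ± 1.45, 4.53 ± 0.50 (adjusted p = 2.89e-05)). Receptors of the same ligands with higher qHSC levels fell, *Adora2a* from 8116 ± 2211 to 318 ± 199 (-4.98, adjusted p = 1.95e-05) and *Ptger2* from 8146 ± 1486 to 1009 ± 307 (-3.05, adjusted p = 2.91e-06). Of 6 G protein alpha subunits tested (median -0.05), 2 low ones (*Gnao1* and *Gnai1*) were called lower. *Gnai1* was called in only 4 of 10 fits with a library left out, in DESeq2 (-1.70, adjusted p = 0.0282) and not in edgeR (adjusted p = 0.0744). *Gnas*, the stimulatory subunit, was not called (0.55 ± 0.19 (adjusted p = 0.0301)).

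Among 20 PKA inhibitors, kinases related to PKA and A-kinase anchoring proteins, 17 were tested, with 7 lower and 2 higher and a median of -0.86. The inhibitors split: *Pkib* rose from 185 ± 243 to 6726 ± 4031 normalized counts (6.02 ± 0.81 (adjusted p = 0.00012)), and *Pkig* fell from 16337 ± 1917 to 2575 ± 889 (-2.72 ± 0.22 (adjusted p = 3.56e-06)). *Pkia* (-3.05 ± 1.16 (adjusted p = 0.0485)) and the anchoring protein gene *Akap6* (-2.82, adjusted p = 0.0373) were called lower, but each in only 4 of 10 fits with a library left out, with changes as small as -1.79 and -1.73. Both were called in DESeq2 (-1.88 and -1.94, adjusted p = 0.0495 and 0.0141) and neither in edgeR (adjusted p = 0.0914 and 0.0584). *Akap10* was called higher (1.27 ± 0.36 (adjusted p = 0.0123)), but not without hypHSC 4 and 5 (0.77), with libraries scaled to the same total (0.92) or scaled on *Hprt*, *Pgk1* and *Actb* (0.34). Of 7 substrates and partners of the cGMP kinase, 5 were tested, with 2 lower and 1 higher and a median of -0.70. *Irag1*, which links the kinase to the calcium release channel, fell (-3.56 ± 0.73 (adjusted p = 0.00207), and -2.51 without hypHSC 4 and 5), as did *Itpr1*, that channel (-2.89 ± 0.31 (adjusted p = 2.23e-05)), and *Irag2*, a relative known from lymphoid and myeloid cells, rose from 103 ± 93.7 to 1561 ± 552 (4.46 ± 0.69 (adjusted p = 0.000295)).

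Of the 8 transcription factors and coactivators that respond to cAMP, all tested, *Atf1* rose (1.59 ± 0.24 (adjusted p = 0.000291)) but was not called when scaled on *Hprt*, *Pgk1* and *Actb* (0.66), *Crtc3* fell (-1.57 ± 0.25 (adjusted p = 0.00034)) and 6 were not called (median -0.31). Other effectors of cyclic nucleotides had 5 of 15 genes tested, with *Popdc2* and *Hcn3* lower (median -1.46), *Hcn3* in neither DESeq2 nor edgeR (adjusted p = 0.0867 and 0.137). The cAMP-activated exchange factors *Rapgef3* and *Rapgef4* were not called. Among 8 ligands and nitric oxide synthases, 2 were tested: *Nos1*, the neuronal synthase, fell from 71.1 ± 25.7 to 6.19 ± 6.18 normalized counts (-4.03 ± 0.86 (adjusted p = 0.00251)), and *Nos3* was not called. Both tested exporters of cyclic nucleotides, *Abcc4* and *Abcc5*, were not called. *Abcc4* (1.47 ± 0.65 (adjusted p = 0.0836)) was called higher in DESeq2 (1.89, adjusted p = 0.00379), in edgeR (1.95, adjusted p = 0.0213) and without hypHSC 4 and 5 (2.01). *Abcc5* was higher without overlap (0.75 ± 0.24 (adjusted p = 0.0222)), short of a log2 fold change of 1.

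**Figure D4:**
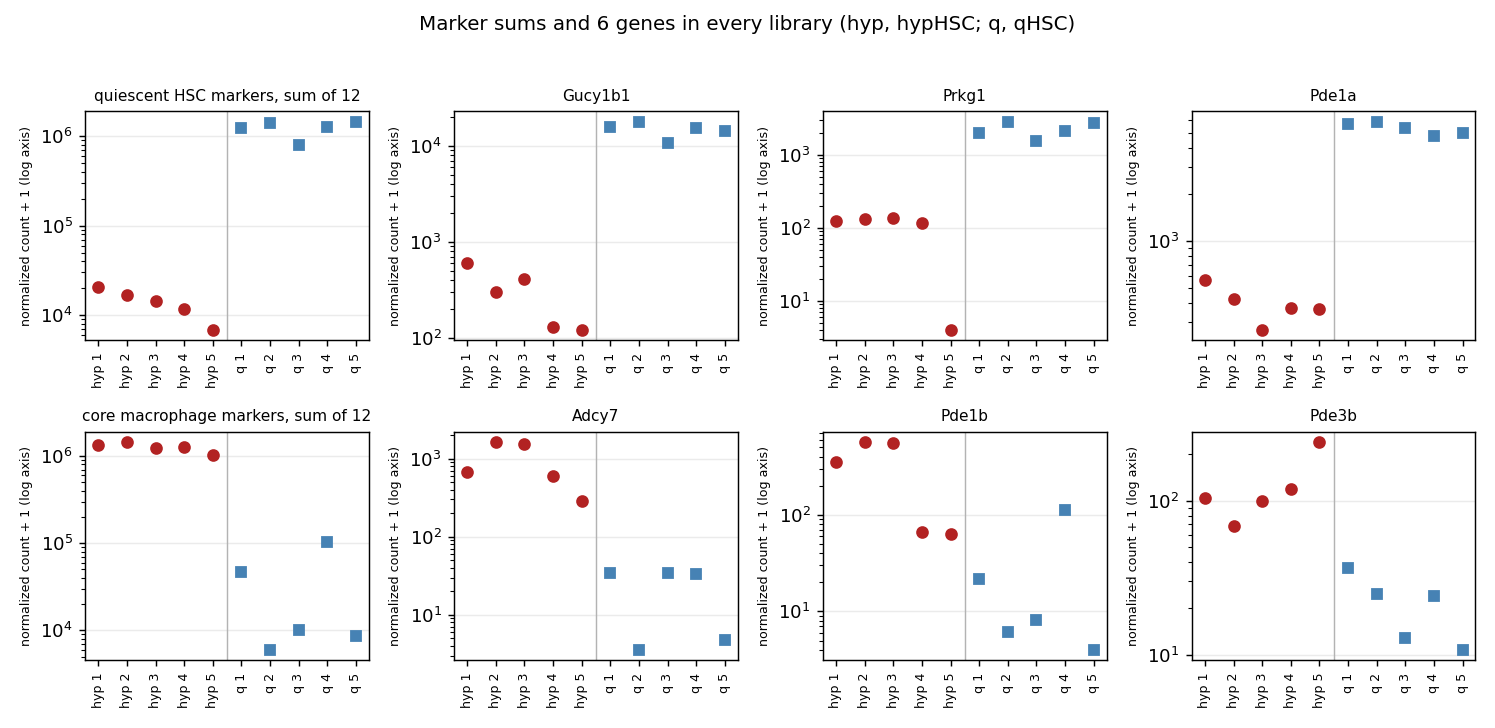
Summed quiescent HSC markers and core macrophage markers (12 genes each) and 6 genes of the set in every library, as normalized count + 1 on log axes (red circles, hypHSC, blue squares, qHSC). *Gucy1b1*, *Prkg1*, *Pde1a* and the quiescent HSC sum are lower in all hypHSC libraries than in any qHSC library. *Adcy7*, *Pde3b* and the macrophage sum are higher in all hypHSC libraries than in any qHSC library, and *Pde1b* overlaps between the groups. Among hypHSC libraries, hypHSC 5 is lowest in the macrophage sum and in *Adcy7* and highest in *Pde3b*.

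Beside these results stand the levels of markers of other cells, whose part in them was not tested. Of all genes tested, 21.7% were called lower and 17.8% higher. Sinusoidal endothelial markers summed to 451 to 965 normalized counts in hypHSCs and 2433 to 3547 in qHSCs, with 8 of 9 tested, 3 lower and 1 higher. The 6 markers of vascular smooth muscle, a cell type that also uses soluble guanylyl cyclase and *Prkg1*, summed to 353 to 1835 and 5533 to 7755, with 3 of 4 tested lower. Kupffer cell markers summed to 18347 to 34538 and 1270.4 to 44861 (3 of 6 higher), neutrophil markers to 1454 to 5814 and 0 to 110 (3 of 3 tested higher), and cholangiocyte markers to 519 to 2874 and 4.72 to 56.1 (3 of 3 tested higher). B cell markers summed to 242 to 381 and 5.11 to 128 (1 of 2 tested higher), markers of T and NK cells to 17.6 to 538 and 5.11 to 165 (neither of 2 called), hepatocyte markers showed 2 of 7 lower, and of 6 activated HSC markers 2 were higher and 1 lower (5289 to 20485 and 13279 to 20807).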

How the data were processed

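Bulk RNA from 5 hypHSC and 5 qHSC preparations was reverse-transcribed from the poly(A) tail, amplified and sequenced as non-stranded paired reads of 59 bases. The authors aligned the reads to mm39 with STAR, counted them per gene of the FAST DB annotation with featureCounts (Subread 1.5.0), and normalized the counts with DESeq2, and the submitters' processing notes also name FastQC 0.11.2, Picard 1.119 and SAMtools 1.0. The deposited values are these normalized counts, a signal per gene for 62322 entries, of which the 25233 with a gene symbol were used. Whole reads were recovered from the deposited normalized counts by the step size of each library, and 100% of the values came out whole within 0.1 read.

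The main test was limma 3.58.1 (lmFit, eBayes with trend, in R 4.3.3) on log2(normalized count + 1), with the filter and call rule given above, and p-values were adjusted over all 14630 genes tested (5779 called). edgeR 4.0.16 (quasi-likelihood) and DESeq2 1.42.0 on the recovered reads called 5336 and 5822 genes. The scripts were tested on simulated data with known changes first. FPKM was computed from the recovered reads with GENCODE vM39 exon lengths and the reads on genes with a symbol, and serves description only. Of the 52 genes, the called ones whose mean reached 100 normalized counts in a group are given in every library, and others by range, except *Pde10a*, whose libraries are given because its call is unstable. Of each list of related genes the called genes with that mean are named, at most 3 in each direction, and genes named beyond that were chosen after their values were seen. A result that this rule would name is not reported here. The members and lists were chosen with earlier results of these data known.

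The alternatives were other pseudocounts (0.5 and 5), no filter or a filter at 50, other scalings, a replicate block, hypHSCs at 12 weeks only, entries without a symbol included, each library left out, and both count tests. Leaving out hypHSC 4 and 5 together was added after seeing the data. Replicate numbers did not pair the libraries. No pair of libraries agreed within sampling noise. Promoter sequence was read from GRCm39.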

Additional observations from a re-analysis of the deposited data

Results flagged for a closer look

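In each of the 80 groups of 5 libraries formed by the 40 tested genes, the gap between the most extreme library and its nearest neighbour was divided by the range of the group. In 4 of them this ratio passed 0.71, the 95% critical value of Dixon's test, and chance alone passes it in about 1 group in 20. *Prkg1* in hypHSC 5 had 3.02 normalized counts where the other hypHSC libraries had 113 to 133 (ratio 0.955). *Pde4a* in hypHSC 5 had 1.51 where the others had 60.9 to 110.5 (ratio 0.845). *Pde10a* in qHSC 2 had 29.0 where the others had 77.9 to 101 (ratio 0.791), and *Npr1* in qHSC 1 had 132 where the others had 79.4 to 89.5 (ratio 0.767). Both low hypHSC values lie in the library that stood farthest apart over all genes, and the cause was not tested.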

How the results depend on the processing

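Of the 24 called genes, 16 held their call under each of the other settings in which they were tested (24, or 23 for *Pde5a*), and none changed direction. Between 20 and 28 genes were called, 4 to 7 higher and 15 to 24 lower, DESeq2 giving 22 and edgeR 20. With 1 library left out, the counts ranged from 20 to 24, with 5 to 6 higher and 15 to 19 lower. Scaling to the same total moved the median log2 fold change of all genes tested from -0.20 to -0.55 (2013 higher and 4242 lower, against 2602 and 3177), and scaling on *Hprt*, *Pgk1* and *Actb* moved it to -1.13 (1472 and 7020). The genes that changed direction were all uncalled. *Pde6d* had log2 fold changes of 0.017 under upper-quartile scaling, 0.38 with hypHSCs at 12 weeks only, 0.0020 in DESeq2, 0.10 in edgeR and -0.47 to 0.20 with 1 library left out. *Adcy3* had 0.050 under upper-quartile scaling, 0.30 without hypHSC 4 and 5, 0.0076 in DESeq2, 0.066 in edgeR and -0.26 to 0.074 with 1 library left out. *Adcy2* had 0.88 without hypHSC 4 and 5, 0.018 in DESeq2 and 0.089 in edgeR, and *Adcy4* had -1.44 to 0.12 with 1 library left out. *Prkaca* had 0.014 under TMM and 0.10 under upper-quartile scaling, 0.084 at 12 weeks, 0.076 in DESeq2, 0.15 in edgeR and -0.25 to 0.18 with 1 library left out, and *Prkacb* had 0.11 without hypHSC 4 and 5. Under the same total and the 3 reference genes, *Adcy9* had -0.056 and -0.64, *Pde7a* -0.34 and -0.92, and *Pde8a* -0.35 and -0.93. At 12 weeks *Pde7a* had -0.058 and *Pde8a* -0.016, and with 1 library left out -0.21 to 0.18 and -0.13 to 0.22. The cause was not tested. With the replicate number as a block, 23 genes were called, 5 higher and 18 lower, and *Pde10a* was lost. Deviations of same-numbered libraries correlated at 0.0082 to 0.13, and only replicate 5 correlated best with its own number, so the numbers were not taken to pair the samples. Genes with under 3 reads in hypHSCs, such as *Adcy5* and *Npr2* in hypHSC 4 and 5, have folds that depend on the added count. Reads without strand cannot be divided between overlapping genes.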
